A study of Sus scrofa with 8 samples.

Results

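The genes described here are the simple-epithelial keratins KRT7, KRT8, KRT18 and KRT19, the epithelial adhesion protein EPCAM, the mesenchymal filament protein vimentin (VIM) and ezrin (EZR), in scraped pig oviduct. They were taken from the array as every probe set whose single gene symbol in the platform annotation is 1 of these 7 names. This gave 7 probe sets of 6 genes among the 23999 probe sets tested, with 2 probe sets for KRT8 and 1 for each of KRT18, KRT19, EPCAM, VIM and EZR. KRT7 has no such probe set, since its only probe set carries a second symbol as well. That probe set read 9, 9.1, 14 and 9 with X-spermatozoa and 13.9, 9.9, 13.2 and 6.7 with Y-spermatozoa, which is near the background level given below, and it entered no count.

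Keratins are the intermediate filaments of epithelial cells, and they assemble only as pairs of a type I and a type II protein. KRT8 (type II) pairs with KRT18 or KRT19 (type I) in simple epithelia such as the lining of the oviduct, while EPCAM joins epithelial cells to each other and ezrin ties the actin cytoskeleton to the apical membrane and its microvilli. Vimentin forms the intermediate filaments of fibroblasts, endothelium, leukocytes and many smooth muscle cells, so that a scraping which takes more of the tissue under the epithelium carries more of its transcript.

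The samples were oviducts of weaned crossbred sows (Landrace and Large White) before ovulation, 4 sows in all, and no oviduct without spermatozoa was analysed here. In each sow flow-sorted X-bearing spermatozoa pooled from several boars were placed by laparoscopy in 1 oviduct and Y-bearing spermatozoa from the same boars in the opposite oviduct, and the mucosa was scraped after 24 h. Every oviduct was hybridised alone to an Affymetrix Porcine array, for a total of 4 X-spermatozoa arrays (X1 to X4) and 4 Y-spermatozoa arrays (Y1 to Y4), the number being that of the sow. The comparison asks whether the oviduct differs with the sperm type it holds, and for these genes it also shows how far epithelial and mesenchymal transcripts varied between scrapings.

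The deposited values are linear signals, scaled on each array to one trimmed mean, so a level here is always relative to the rest of its array. Each of the 7 probe sets was above the background level and above the median of the probe sets on every array. The background level, the 95th percentile of 64 reporter probe sets with no pig target, was 8.395 to 12.485, and array medians were 38.7 to 41.2. The ratio of 3′ to 5′ signal of GAPDH, a measure of RNA integrity, was 3.83 to 4.58 on 7 arrays and 6.0 on Y1, and that of actin was 5.46 to 6.61 on those arrays and 8.35 on Y1. The spiked hybridisation controls were brighter with Y-spermatozoa, at a mean log2 signal of 9.98 ± 0.09 against 9.69 ± 0.10 (SD, n = 4 each), with no overlap between the groups. Differences are given below as Y-spermatozoa minus X-spermatozoa on quantile-normalized log2 signals, tested with limma (two-sided). In bulk RNA, fewer cells of a type and less RNA of a gene per cell cannot be told apart.

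Keratins 8 and 18, the filament pair of simple epithelia, were each higher with Y-spermatozoa in 4 of 4 sows, as 2 of the 7 probe sets were after quantile normalization, by amounts that did not pass the test. KRT8 read 1191.5, 1308.8, 1148.8 and 1438.1 on X1 to X4 and 1296.2, 1474.5, 1225.0 and 1801.3 on Y1 to Y4. The groups overlapped, with Y4 the highest of the 8 arrays and X3 the lowest. The difference was 0.12 on the log2 scale (SE 0.12, 95% confidence interval -0.17 to 0.40, adjusted p = 1 by limma, exact two-sided permutation p = 0.286), and within the sows it was 0.10, 0.12, 0.06 and 0.19. KRT18 read 581, 672.9, 432.8 and 741.4 with X-spermatozoa and 656.1, 739.6, 544.4 and 874.5 with Y-spermatozoa. Again Y4 was the highest array and X3 the lowest, and the groups overlapped. The difference was 0.19 (SE 0.21, 95% confidence interval -0.29 to 0.68, adjusted p = 1 by limma, exact permutation p = 0.457), made up of 0.17, 0.09, 0.30 and 0.22 within the 4 sows. Over the 8 fits that left out 1 array, the KRT18 difference ran from 0.05 (without X3) to 0.30 (without Y3) and that of KRT8 from 0.04 (without Y4) to 0.17 (without Y3). Once the hybridisation controls entered as a covariate, KRT18 was at 0.01 (SE 0.45) and KRT8 at 0.09 (SE 0.27). Those controls do not overlap between the groups, so this fit can hardly tell them from sperm type. With arrays centred on their median, EPCAM and EZR were higher in 4 of 4 sows too, as were 9.42% of all probe sets. After quantile normalization a share of 6.44% of all probe sets tested were higher with Y-spermatozoa in 4 of 4 sows, and an exact sign-flip test over 4 sows cannot give a p under 0.125, the value that both KRT8 and KRT18 reached.

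The second KRT8 probe set was far dimmer and more variable than the first. It read 98.7, 131, 82.5 and 159.6 with X-spermatozoa and 85, 137.3, 96.7 and 239.5 with Y-spermatozoa, a ratio of 2.90 between the highest and the lowest array, against 1.57 for the brighter one. Y4 again stood highest, and in sow 1 the Y-spermatozoa array was the lower of the pair, so the 2 KRT8 probe sets disagree in sign there. Its difference was 0.18 (SE 0.36, 95% confidence interval -0.67 to 1.02, adjusted p = 1 by limma), and it was -0.12 without Y4. Its identifier comes from the same sequence cluster as the probe set that carries the KRT7 symbol, and whether it takes up transcripts of other keratins was not tested.

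KRT19, a type I keratin without the tail domain of the others, had no common direction across sows. It read 932.6, 723.8, 520.6 and 728.3 with X-spermatozoa and 817.7, 742.4, 756.8 and 965.4 with Y-spermatozoa. X1 and Y4 were high and X3 stood below the other 7 arrays. The difference was 0.17 (SE 0.19, 95% confidence interval -0.27 to 0.62, adjusted p = 1 by limma) and from 0.03 (without X3) to 0.31 (without X1) over the fits that left out 1 array. Within the sows it was -0.21, -0.01, 0.53 and 0.38.

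EPCAM and EZR were the steadiest of the 7 probe sets, with a coefficient of variation over the 8 arrays of 8.39% and 7.90%, against 15.5% for KRT8 and 26.5% for VIM. EPCAM read 2890.5, 3273.4, 3023 and 3318.9 with X-spermatozoa and 3215.9, 3197.7, 3109.9 and 3805 with Y-spermatozoa. The groups overlapped, and only Y4 lay clear of the others. The EPCAM difference was -0.01 after quantile normalization (SE 0.11, 95% confidence interval -0.27 to 0.25, adjusted p = 1 by limma) and turned to 0.09 as deposited and 0.12 after median centring. EZR read 2076.5, 1820.1, 1791.5 and 1869.1 with X-spermatozoa and 2219.3, 1796.3, 1980.2 and 2012 with Y-spermatozoa. Sow 1 was highest in both of its oviducts, and the groups overlapped. Its difference was -0.00 (SE 0.14, 95% confidence interval -0.34 to 0.33, adjusted p = 1 by limma), and it turned to 0.08 and 0.12 under the same scalings.

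Vimentin had a mean difference near 0 made up of opposite differences in different sows. VIM read 2926.2, 3197.3, 1992.7 and 2262.7 with X-spermatozoa and 1996.5, 3680, 1989.1 and 3472.6 with Y-spermatozoa. Arrays X3, Y3, Y1 and X4 were low, and X1, X2, Y2 and Y4 were high, so each group held both kinds. Within the sows the difference was -0.57, 0.06, 0.02 and 0.42, and the mean was -0.02 (SE 0.21, 95% confidence interval -0.52 to 0.48, adjusted p = 1 by limma). It turned to 0.07 with the deposited scaling, 0.10 with median centring and 0.24 (SE 0.46) when adjusted for the hybridisation controls. The low VIM array of sow 1, Y1, is also the array with the highest 3′ to 5′ ratios, and without it the difference was 0.08. The part of RNA integrity in the sow 1 difference was not tested.

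**Figure D1:**
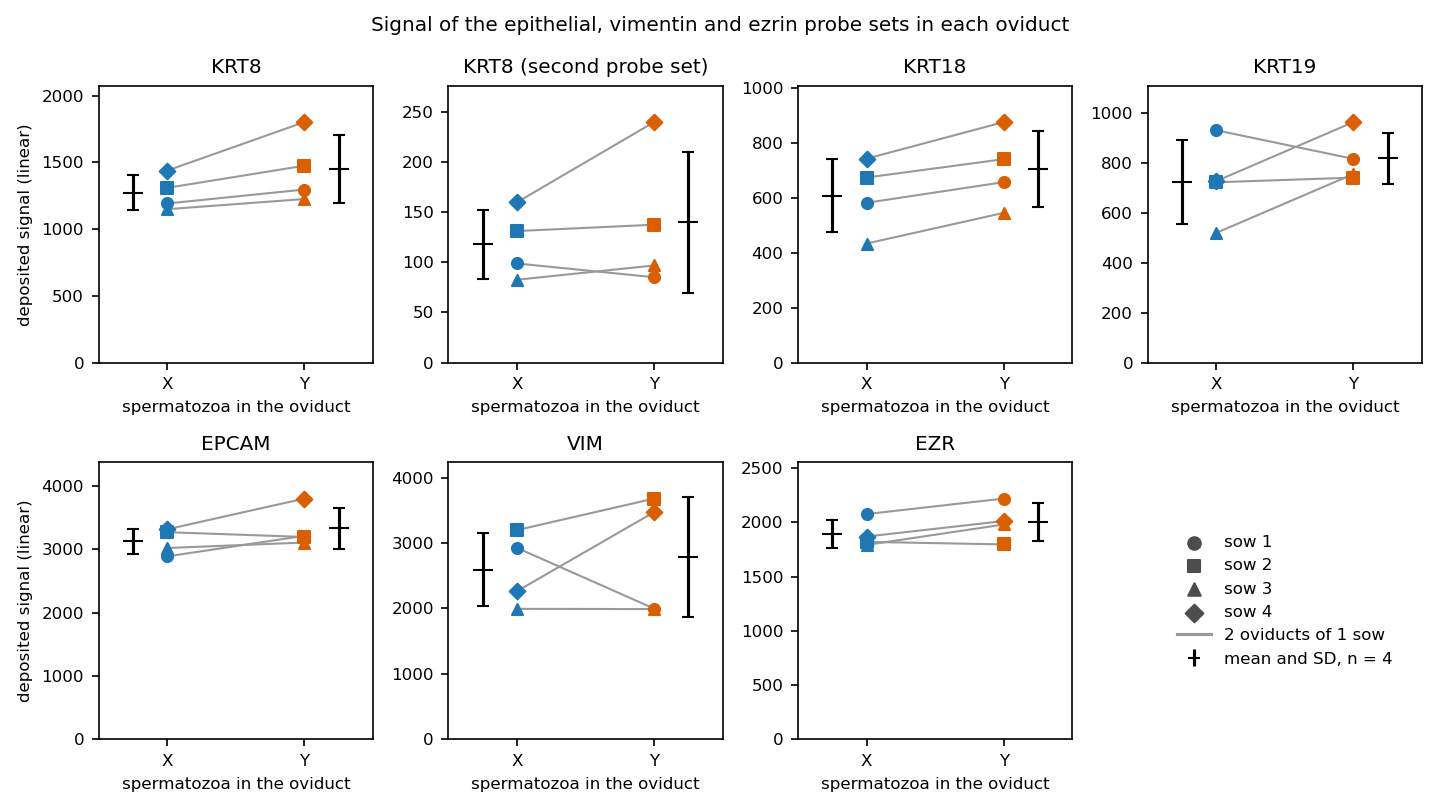
Deposited linear signal of each probe set in the 4 X-spermatozoa oviducts (blue) and the 4 Y-spermatozoa oviducts (orange), with a line joining the 2 oviducts of a sow and, beside each group, its mean and SD (n = 4). The lines of KRT8 and KRT18 rise in 4 of 4 sows and keep the order of the sows, while those of VIM fall in sow 1 (2926.2 to 1996.5) and rise in sow 4 (2262.7 to 3472.6).

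In all, 0 of the 7 probe sets passed an unadjusted limma p of 0.05, which 855 of the 23999 probe sets tested (3.56%) passed in either direction. After Benjamini-Hochberg adjustment 0 of 7 passed, as did 0% of all probe sets. With the sow as a block the count was also 0 of 7, beside 5.09% of all probe sets, and the smallest p was that of KRT18 (adjusted p = 0.895 by limma). With arrays centred on their median and the sow as a block, 1 of 7 passed the unadjusted limma threshold, KRT18 at a difference of 0.25 (adjusted p = 0.871), beside 5.23% of all probe sets. The 95% confidence intervals were narrowest for EPCAM, from -0.27 to 0.25, and widest for the second KRT8 probe set, from -0.67 to 1.02.

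**Figure D2:**
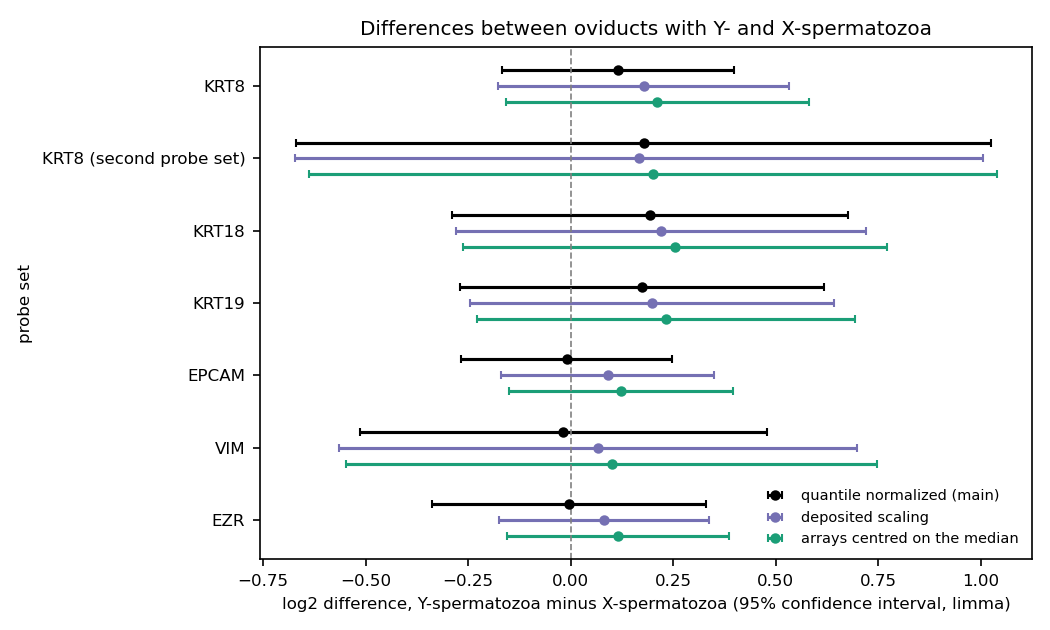
Log2 difference between Y- and X-spermatozoa oviducts for each probe set (points) with its 95% confidence interval from limma (bars), after quantile normalization (black), as scaled by the depositors (purple) and after centring each array on its median (green). Every interval crosses 0, and the points of EPCAM, VIM and EZR lie just under 0 in black (-0.01, -0.02 and -0.00) and above 0 in the other colours.

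Among the sows, KRT8 and KRT18 followed one order in both of a sow's oviducts. The mean KRT18 signal of the 2 oviducts was 618.55 in sow 1, 706.25 in sow 2, 488.6 in sow 3 and 807.95 in sow 4, and that of KRT8 was 1243.85, 1391.65, 1186.9 and 1619.7. The sow means of both KRT8 probe sets and of KRT18 fell in the same order, with sow 4 highest, then sow 2, sow 1 and sow 3. The share of variance over the 8 log2 values that lay between sows was 86.2% for KRT18, 78.2% for KRT8 and 88.6% for its second probe set, beside a median of 63.9% for probe sets above the median signal. EZR had a share of 89.4% with another order, in which sow 1 was highest (mean 2147.9) and sow 2 lowest (1808.2). EPCAM had 72.5%, VIM 57.1% and KRT19 53.2%.

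In limma's F-test among the 4 sows, with sperm type in the model, 2 of 7 probe sets passed the unadjusted threshold, KRT18 (adjusted p = 0.274) and the second KRT8 probe set (adjusted p = 0.268). Over all probe sets 14.2% passed it, and 0% passed after adjustment. With an intensity trend in the variance 4 of 7 passed unadjusted, the brighter KRT8 probe set and EZR being the additional ones, beside 19.5% of all probe sets in that fit. The largest distance between sow means was 0.70 on the log2 scale for KRT18 and 0.32 for KRT8, beside sperm-type differences of 0.19 and 0.12. These are unlike measures. The first is the range of 4 means of 2 arrays and the second 1 difference between 2 means of 4 arrays, so their sizes cannot be compared directly.

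**Figure D3:**
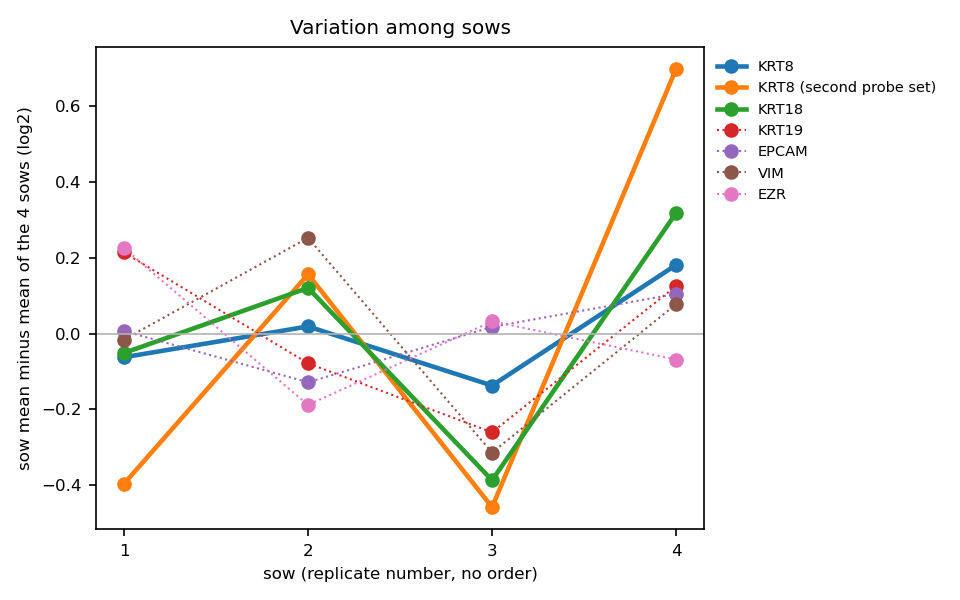
Mean normalized log2 signal of the 2 oviducts of each sow, relative to the mean of the 4 sows, for each probe set; the lines join the points of a probe set and the sows have no order. KRT8, its second probe set and KRT18 (solid lines) are highest in sow 4 and lowest in sow 3, and the other genes (dotted lines) follow other orders. Of these, VIM and KRT19 are also lowest in sow 3, and EPCAM is also highest in sow 4.

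As a description of the scrapings, the mean log2 signal of KRT8, KRT18, KRT19 and EPCAM was set against that of VIM on each array. Signals of different probe sets are not on one scale, so only the differences between arrays can be read. The epithelial mean minus VIM was -1.38, -1.36, -1.09 and -0.90 on X1 to X4 and -0.76, -1.41, -0.89 and -1.12 on Y1 to Y4. It was lowest on Y2, X1 and X2 and highest on Y1, and the groups overlapped. The mean was -1.18 ± 0.23 with X-spermatozoa and -1.05 ± 0.28 with Y-spermatozoa (SD, n = 4 each), a difference of 0.14. The difference was 0.04 without Y1, 0.07 without X1 and 0.25 without Y2. Within sow 1, X1 and Y1 differed by their VIM values and hardly by their epithelial means (10.24 and 10.29), whereas in sow 4 both rose from X4 to Y4, the epithelial mean from 10.32 to 10.51 and VIM from 11.21 to 11.64.

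**Figure D4:**
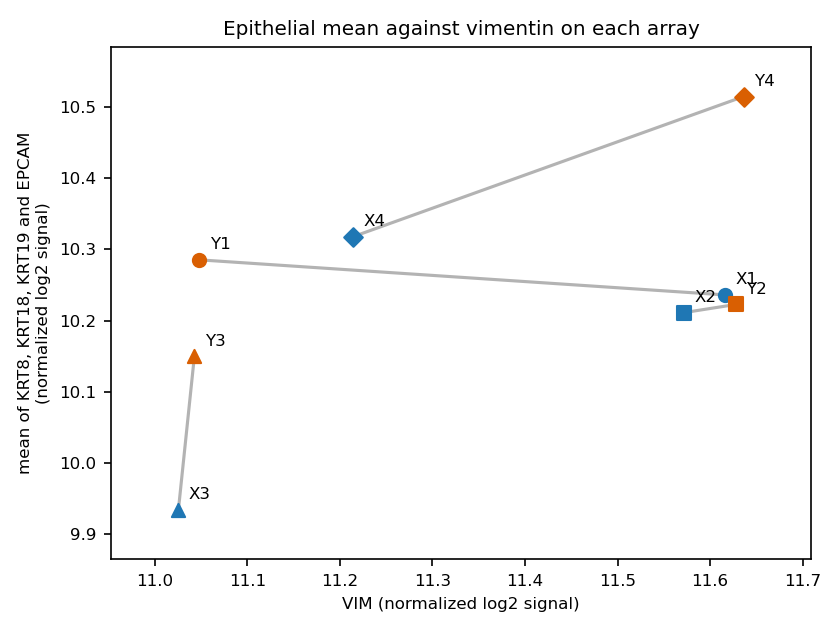
Mean normalized log2 signal of KRT8, KRT18, KRT19 and EPCAM (vertical axis) against that of VIM (horizontal axis) on each array, with lines joining the 2 oviducts of a sow (blue for X-spermatozoa, orange for Y-spermatozoa). Sow 1 moves mainly along the VIM axis, sow 3 mainly along the epithelial axis, and sow 4 along both.

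Likeness between genes is given as Pearson r over 8 arrays, which fall into 4 pairs by sow and so are not 8 independent samples. KRT18 had an r of 0.92 to KRT8 (0.94 without Y4 and X3, the 2 arrays farthest from the KRT8 median), rank 14 among 5966 probe sets compared. The second KRT8 probe set had 0.92, or 0.73 without those 2 arrays. KRT19 had 0.47, which became -0.64 without Y4 and X3, EPCAM 0.23 (-0.03 without them) and EZR -0.45 (-0.59), beside a median of 0.10 over the probe sets compared. VIM had 0.48 to KRT8, which became 0.07 without Y4 and X3. The r of VIM was 0.59 to KRT18, 0.62 to the second KRT8 probe set and 0.52 to KRT19. Without X3 and Y3, the arrays farthest from the VIM median, these values were 0.12, 0.43 and 0.24. To EPCAM and EZR the r of VIM was -0.49 and -0.49, or -0.56 and -0.57 without X3 and Y3. The median r to VIM over the probe sets compared was 0.12. In the pig gene table KRT8 and KRT18 lie on the same chromosome with 1 gene start between them.

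The genes most like KRT8 were GPX1, a glutathione peroxidase (r = 0.94), UTP4, of small-subunit ribosome assembly (0.93), GTF3C6, a part of transcription factor IIIC (0.93), the serpin SERPINA11 (0.93) and GOLGA7 (0.93). Those most like VIM were GMPS, which makes GMP (0.96), TCP11L1 (0.96), the lysosomal membrane protein LITAF (0.95), SNU13 of the spliceosome (0.94) and NDUFB2 of respiratory complex I (0.94). No gene of the stromal list below was among these 5.

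Among the other filament genes none passed the test between the sperm types. Of 15 other keratins listed, 3 had a probe set with a single symbol (KRT1, KRT2 and KRT10), and 0 passed the unadjusted limma threshold. KRT10, a keratin of differentiating squamous cells, read between 204.1 and 298.1, KRT2 between 27.8 and 54.9, and KRT1 was below background on 4 arrays. Of 14 genes of filament partners, 8 were measured and 0 passed, with a median difference of -0.01, against 0.00 over all probe sets. Desmoplakin (DSP), which ties keratins to desmosomes, read 475.6 to 694.2 with X-spermatozoa and 449.7 to 791.9 with Y-spermatozoa. DST, a linker between filaments and hemidesmosomes, was lower with Y-spermatozoa in 4 of 4 sows by 0.20 without passing (adjusted p = 1 by limma). The share of all probe sets that were lower in 4 of 4 sows was not counted. The muscle filament genes DES and SYNM had differences of -0.46 and -0.24, within the spread of the arrays.

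In the ezrin network 8 of 12 listed genes were measured. At the unadjusted limma threshold 2 were lower with Y-spermatozoa and 0 were higher, beside 3.56% of all probe sets in either direction. After adjustment 0 passed, and the median difference was -0.07. RDX (radixin, an ezrin paralogue) read 176.4, 102.7, 199.4 and 169.1 with X-spermatozoa and 113.8, 106.0, 102.3 and 109.2 with Y-spermatozoa. X2 lay among the Y-spermatozoa arrays. The difference was -0.54 (SE 0.21, adjusted p = 1 by limma). It kept its unadjusted call in only 1 of the 8 fits that left out 1 array, the one without X2. Over those fits the difference ran from -0.74 to -0.43. The unadjusted limma call also held with median centring, as deposited and with the sow as a block (adjusted p = 0.895 in the block fit). A second RDX probe set gave -0.13. Adjusted for the hybridisation controls the first was at 0.01, in a fit that can hardly tell those controls from sperm type. These values are for RDX alone and do not bear on the other call. SLC9A3R1, the scaffold that binds ezrin at the apical membrane, differed by 0.06 and MSN (moesin) by -0.11.

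No other epithelial gene measured passed the test. Of 25 listed, 15 were measured and 0 passed in either direction, with a median difference of 0.06. OVGP1 is the oviduct-specific glycoprotein of secretory cells. Its deposited signal was 6588.9, 8469.1, 7735.7 and 5841.4 with X-spermatozoa and 9314.9, 8576.2, 9034.9 and 7768.9 with Y-spermatozoa. These deposited signals were higher with Y-spermatozoa in each sow, with means of 7159 ± 1170 for X-spermatozoa and 8674 ± 676 for Y-spermatozoa (SD). The share of all probe sets with that pattern as deposited was not counted. The OVGP1 difference was 0.02 after quantile normalization, which gave X3 and Y3 the same value at this very high signal. Its difference as deposited is not given as a fit here. CDH1 (E-cadherin) differed by 0.06, the protease inhibitor SPINT2 by -0.02 and the tight-junction gene CLDN7 by -0.08. The summed signal of the 15 genes was 13046.1 to 16233.8 with X-spermatozoa and 15481.4 to 16608.0 with Y-spermatozoa. OVGP1 was the largest part of that sum on every array. Of the 15, 13 were above background on every array, while TJP1 and FOXA1, named after their values were seen, were below it on 2 arrays each. The scrapings thus held transcripts of defining epithelial genes on every array, beside those of VIM and of the stroma described next.

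Of the stromal genes measured 18 of 20, and of the smooth muscle genes 4 of 4, were above background on every array. COL3A1 was below it on 1 array and BGN, named after its values were seen, on 2. Mean signals in the stromal list ran from 20.7 (COL3A1) to 2287 (SPARC). The summed signals of both lists ranged widely within each group. Of 28 stromal genes 20 were measured and 0 passed, with a median difference of -0.00 and a summed signal of 4189.3 to 7332.2 with X-spermatozoa and 3776.7 to 8927.6 with Y-spermatozoa. SPARC, a matrix-binding glycoprotein, read 1363.6, 2503.1, 2557.3 and 2372.9 with X-spermatozoa and 1468.1, 3015.9, 1999.1 and 3013.5 with Y-spermatozoa. Sow 1 was the lowest in both of its oviducts. Of 6 smooth muscle genes 4 were measured and 0 passed, with a median difference of -0.28 and a summed signal of 1516.6 to 4257.7 against 1047.7 to 3557.2. ACTA2 (smooth muscle actin) read 1178.8, 3359, 3148.3 and 1925.5 with X-spermatozoa and 766.5, 2562.3, 1111.4 and 2651 with Y-spermatozoa, so that it differed between the 2 oviducts of sow 3, in which VIM was nearly equal.

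VIM moved with the stromal genes in part. In a comparison chosen after the values were seen, 12 of 20 stromal genes (60%) and 4 of 4 smooth muscle genes were, like VIM, lower with Y-spermatozoa in sow 1 and higher in sow 4, beside 3 of 15 epithelial genes (20%) and 26.1% of all probe sets above the median signal. The pattern was shared by 4 of 8 filament partners (50%), 3 of 7 leukocyte genes (42.9%), 1 of 8 ezrin network genes (12.5%) and 0 of 3 other keratins. The epithelial list leaves out the 7 probe sets themselves. Of those, KRT19 (-0.21 and 0.38) and the second KRT8 probe set (-0.21 and 0.58) shared the pattern. The brighter KRT8 probe set, KRT18, EPCAM and EZR did not. The median r to VIM over the 8 arrays was 0.53 for the stromal list, 0.45 for smooth muscle and 0.05 for the epithelial list. It was 0.51 for the endothelial list, in which 3 of 6 genes shared the pattern of sows 1 and 4. The stromal list had a median r of 0.43 to KRT8 as well, with 19 of 20 genes positive to either gene. Of the 11999 probe sets above the median signal, 6005 were positive to VIM and 6013 to KRT8. The list values of r were not taken again without the arrays farthest from the median. The arrays X1 and X3 did not follow. X1 had a high VIM signal (2926.2) with low SPARC (1363.6), DCN (766) and LUM (693.9). DCN and LUM are small proteoglycans of collagen fibres. X3 had a low VIM signal (1992.7) with high SPARC (2557.3), DCN (1273.2) and LUM (1187.7). Y3, with an equal VIM signal (1989.1), read 1999.1, 800.2 and 881.1 for these genes.

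**Figure D5:**
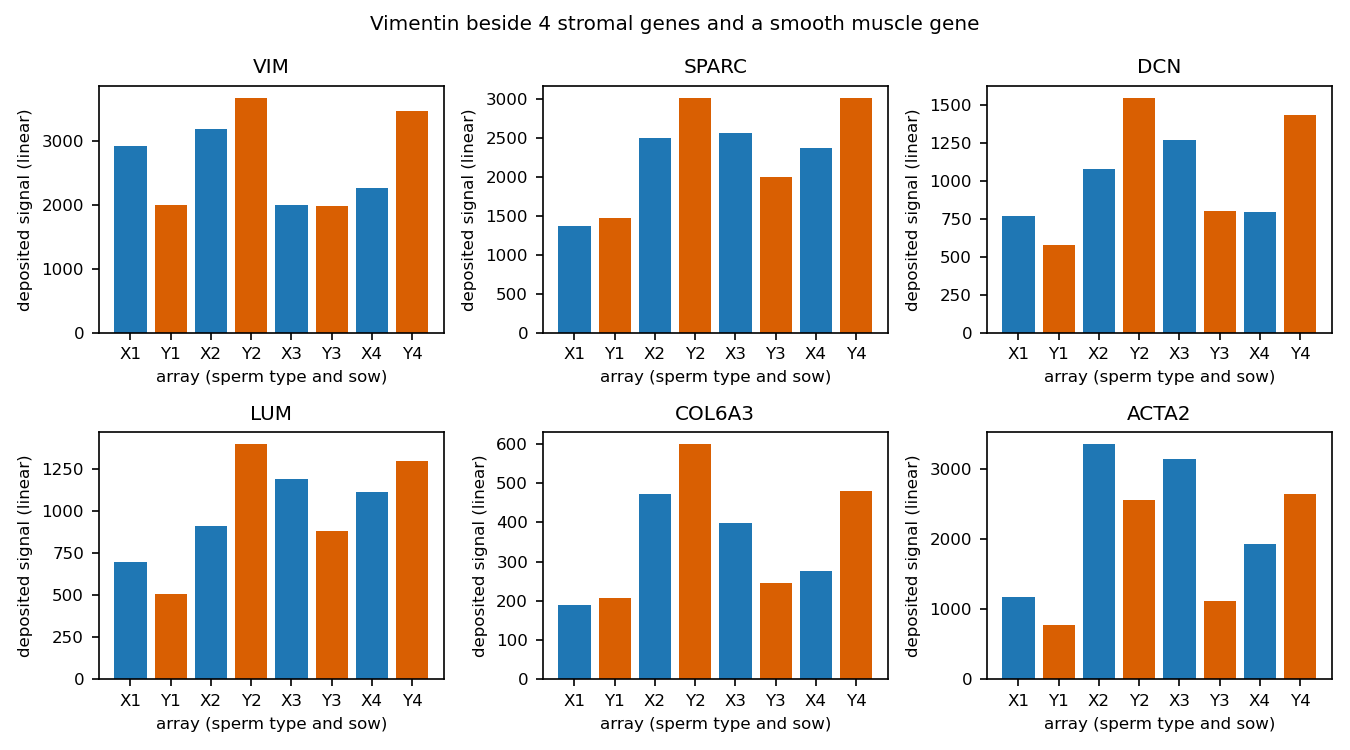
Deposited linear signal of VIM, the stromal genes SPARC, DCN, LUM and COL6A3 and the smooth muscle gene ACTA2 on each array, in the order of the sows (blue for X-spermatozoa, orange for Y-spermatozoa). All 6 genes are higher on Y4 than on X4, but on X1 VIM is high (2926.2) while SPARC is low (1363.6), and on X3 and Y3 VIM is level while ACTA2 is 3148.3 and 1111.4.

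Vimentin is also made by endothelium and leukocytes, and these lists were dim. Of 6 endothelial genes 6 were measured, with a median difference of 0.33 and 0 calls. Their summed signal was 262.9 to 380.6 with X-spermatozoa and 236.6 to 449.5 with Y-spermatozoa. With the sow as a block 1 passed the unadjusted threshold, beside 5.09% of all probe sets. It was VWF at 0.49, higher with Y-spermatozoa in 4 of 4 sows (adjusted p = 0.895 by limma). Dimmer VWF probe sets gave 0.02 (mean signals 16.6 and 16.3) and -0.73 (3 and 1.35, under the background level). PECAM1, the endothelial junction protein, read 71.2 to 118.9 and VWF (von Willebrand factor) 34.2 to 89.2, while KDR was below background on 5 arrays. Of 11 leukocyte genes 7 were measured, with a median difference of 0.23 and a summed signal of 122.0 to 140.7 against 122.7 to 204.3. Of the 7, only 4 were above background on every array, so the median includes genes near or under it. CD4, named after its values were seen, was below background on all 8 arrays. The pan-leukocyte gene PTPRC, named after its values were seen, passed the unadjusted limma threshold upward but was below background on 6 of 8 arrays, so no fold is given (adjusted p = 1). CD14, of monocytes, was below background on 4 arrays, while the macrophage genes AIF1 and CD163 read 37.3 to 67.2 and 17.7 to 71.9. The epithelial marker PAX8, the stromal markers COL1A1 and PDGFRA, the muscle marker MYH11 and the macrophage marker CD68 were not analysed here.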

How the data were processed

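Per the labels, the intensity values deposited for these 8 arrays are MAS5 signals (version 5.1). They are linear, with 1 value per probe set, and the authors scaled each array to one trimmed mean. The study's methods name RMA, limma and Benjamini-Hochberg correction. RMA needs probe-level values, which were not used here, so the signals were quantile normalized over all probe sets, floored at 1 and put on the log2 scale. Quantile normalization assigns values by rank. X4 and Y4 received the same EPCAM value, and X3 and Y3 the same OVGP1 value, so that these pairs differ by 0 there by construction.

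After removal of 124 AFFX controls, limma 3.58.1 in R 4.3.3 (lmFit and eBayes) tested 23999 probe sets without pairing, and an F-test among sows had sperm type in the model. Exact permutation tests used all 70 relabellings of 4 arrays against 4 (smallest p 0.0286) and ignore the sows. The replicate numbers of the labels pair the arrays, since both oviducts of a sow were inseminated. Same-sow arrays deviated together from their groups (r of 0.13 to 0.19, against -0.11 to 0.02 for arrays of different sows), and the sow entered as a block in an alternative fit. The number of arrays limits the precision. Python 3.11.15 with matplotlib 3.10.9 drew the figures.

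The platform annotation gives 1 symbol to 10140 probe sets, several to 157 and none to 13826. Of 10297 annotated probe sets 9989 matched an Sscrofa11.1 gene table, used for synonyms and neighbouring genes. Lists took 1 probe set per gene, the brightest. Named are all probe sets of the 6 genes, the 4 brightest genes of a list, the 5 genes most like KRT8 and VIM by r among bright probe sets of 1 symbol, and cell type markers. Some genes of the ezrin network are counted but not reported here by name. The genes, the lists and the tests were chosen with earlier results of these data known. The closing section gives the alternatives, and the test was tried on simulated data first.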

Additional observations from a re-analysis of the deposited data

Results flagged for a closer look

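The EPCAM signal of the Y-spermatozoa group held 1 array far from the others. Y4 read 3805 and the nearest array, Y1, 3215.9, so the gap made up 0.848 of the whole range of the group. Of 16 groups examined 1 stood out in this way, and chance alone gives about 1 in 20. After quantile normalization Y4 has the same EPCAM value as X4.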

How the results depend on the processing

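The differences of KRT8, KRT18 and KRT19 kept their sign in every setting run, and the count of the 7 probe sets past the unadjusted threshold stayed at 0 except for 1 with arrays centred on their median and the replicate block. The sign turned for EPCAM (0.123 with median centring, 0.0896 as deposited), for EZR (0.115 and 0.0819) and for VIM (0.100 and 0.0667, 0.0144 with array weights, 0.235 with the hybridisation controls as a covariate), and these scalings gave the same values when joined to the replicate block. Joining the block to these scalings was chosen after seeing the data. Leaving out 1 array gave -0.0468 to 0.0566 for EPCAM, -0.132 to 0.0811 for VIM, -0.0891 to 0.0769 for EZR and -0.121 to 0.374 for the second KRT8 probe set. Leaving out 1 sow with the replicate block turned EPCAM to 0.0379 without sow 2, EZR to 0.0366 without sow 2 and 0.0279 without sow 4, and VIM to 0.168 without sow 1. The count over all probe sets went from 855 to 1222 with the replicate block, 1297 with the block and the deposited scaling, and 311 where the probe sets above the median signal alone were tested. The count among sows went from 2 to 4 with a trend in eBayes. The replicate block changed no call among the 7 probe sets in the main scaling. It moved the count of list genes from 3 to 4, while the share over all probe sets went from 3.56% to 5.09%. The causes were not tested. The 311 is a count over 11999 probe sets and the 855 a count over 23999, so the 2 counts cannot be compared directly. The 4 oviducts a side and the lack of probe-level values and detection calls in the signals used here limit how small a difference could be told from 0.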
